A study of Homo sapiens with 9 samples.

Results

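PNPLA3, GRAMD1C, PLSCR4, CMTM8, HOMER2 and BEND4 are 6 genes whose RNA read higher in each of 3 Ewing sarcoma lines resistant to agents against the IGF-1 receptor than in any sample of TC-71, the line they were derived from. They are 6 of the 14181 genes that passed a low-value filter, at least 2 of 9 arrays at 5 or more. GRAMD1C and PLSCR4 passed it through line arrays alone, with no TC-71 array at 5 or more. The condition behind the choice, a mean level in each line above all 3 TC-71 samples, was met by 1047 genes, 7.38% of those tested. It was met by 1496, 2100 and 1843 genes without TC-71 sample 1, 2 and 3, each time with all 6 among them. The 6 were taken from these with earlier results of the same data known, so their difference from TC-71 is given here as a description with no test. The condition is a bare order with no minimum size. CAVIN1 met it by 8.67e-05 on the log2 scale, and NOS2, with a tie at 5.14, just missed it, whereas the smallest margin among the 6 genes was 0.90 in PLSCR4.

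PNPLA3 encodes a lipase of lipid droplets, the organelles that store triglycerides, and its expression is raised by SREBP-1c, a transcription factor of lipid synthesis. GRAMD1C belongs to the Aster family, which sits in the endoplasmic reticulum where it touches the plasma membrane and carries cholesterol inward. PLSCR4 belongs to the phospholipid scramblases, which are linked to the movement of lipids between the leaflets of the plasma membrane. CMTM8 is a membrane protein of the MARVEL type, from the family of CMTM6, a protein that keeps PD-L1 at the cell surface. HOMER2 is a scaffold that ties metabotropic glutamate receptors, IP3 receptors and calcium channels together, and BEND4 carries a BEN domain, a module found in DNA-binding regulators of chromatin. Lipid or membrane roles are thus known for 4 of the 6 genes and not for HOMER2 or BEND4.

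TC-71 is an established Ewing sarcoma cell line, a tumour driven by a fusion of EWSR1 with an ETS gene such as FLI1. Selection ran for 6 months. TC/AEW was raised in NVP-AEW541, which blocks the kinase of the receptor, up to 5 µM, TC/AVE in AVE1642, an antibody to the receptor, up to 10 µg/ml, and TC/CP in figitumumab, another such antibody, at a top dose not given in the sources used here. All cells were kept in Iscove medium with 10% fetal bovine serum, and whether the agents were present at harvest was not given. Each line is a single selected population measured on 2 arrays, technical replicates that were averaged to 1 sample, beside 3 TC-71 samples with 1 array each. No TC-71 culture carried for the same time is named, so resistance and time in culture cannot be told apart, and neither can a higher share of cells with a transcript and more transcript per cell.

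The arrays had like medians, from 5.39 to 5.45. All 9 measured Ewing sarcoma markers of 10 listed, among them CD99, NKX2-2 and PRKCB, stood above 5 in every sample, with a summed level of 94.7 to 97.4 in TC-71 and 96.1 to 97.6 in the lines. Of 5 adipocyte markers, ADIPOQ, LEP and FABP4 were below 5 in all samples and PLIN1 and CIDEC at or above 5 in all, and the summed list stood at 21.9 to 23.8 in TC-71 and 22.0 to 22.4 in the lines. Of 5 hepatocyte markers, ALB was below 5 throughout and CYP2E1 and TTR at or above 5 throughout. Their summed level was 24.7 to 25.5 in TC-71 and 25.8 to 26.3 in the lines, without overlap. CYP2E1 read 5.53 to 5.64 in TC-71 and 6.08 to 6.62 in the lines, and ALB 3.74 and 3.77 to 3.81. Each line was above all TC-71 samples in 7.38% of genes tested. For TTR, APOA1 and SERPINA1 the lines lay inside the TC-71 range. The 4 fibroblast markers spread most, summing to 20.8 to 24.1 in TC-71 and 21.6 to 26.5 in the lines, with LUM at 3.55 to 6.51 and 3.78 to 8.36 and DCN above 5 in all samples. Markers of blood, endothelial and epithelial cells had overlapping sums. The part of such cells in the results was not tested. Levels below 5, the threshold of the filter, are called near background here, and HBB, which these cells should lack, read between 5.74 and 6.02, so background can reach that far for a probe set. CYP2E1 in TC-71 read below HBB. The array sets, read from the year in the array file names, differ between samples. TC-71 sample 1 is alone in the first, sample 2 shares the second with TC/AEW and TC/AVE, and sample 3 shares the third with TC/CP.

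The promoters of these genes are shown first, because genes whose levels move together may or may not share sequence there. RefSeq promoter windows of 300 bases (250 before to 50 after the annotated start, build GRCh38.p14) were matched for 5 of the 6 genes, all but PNPLA3. The windows of GRAMD1C, PLSCR4 and HOMER2 are printed because they span the range of base composition. They read 5′ to 3′ on the strand of the gene, with the matches to any of the 8 motifs searched in capitals.
GRAMD1C, chr3:113897250-113897549, plus strand: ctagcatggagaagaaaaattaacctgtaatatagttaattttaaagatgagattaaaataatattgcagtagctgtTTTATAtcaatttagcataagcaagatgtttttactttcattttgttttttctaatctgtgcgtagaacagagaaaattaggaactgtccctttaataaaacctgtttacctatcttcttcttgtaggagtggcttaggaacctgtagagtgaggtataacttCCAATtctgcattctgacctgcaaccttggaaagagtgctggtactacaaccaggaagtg
PLSCR4, chr3:146251056-146251355, minus strand: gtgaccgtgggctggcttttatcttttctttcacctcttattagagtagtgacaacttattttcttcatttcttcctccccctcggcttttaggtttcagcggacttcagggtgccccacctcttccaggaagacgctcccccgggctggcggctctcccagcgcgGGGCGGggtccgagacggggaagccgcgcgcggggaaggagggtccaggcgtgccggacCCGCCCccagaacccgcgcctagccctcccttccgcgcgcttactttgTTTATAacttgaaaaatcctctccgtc
HOMER2, chr15:82952671-82952970, minus strand: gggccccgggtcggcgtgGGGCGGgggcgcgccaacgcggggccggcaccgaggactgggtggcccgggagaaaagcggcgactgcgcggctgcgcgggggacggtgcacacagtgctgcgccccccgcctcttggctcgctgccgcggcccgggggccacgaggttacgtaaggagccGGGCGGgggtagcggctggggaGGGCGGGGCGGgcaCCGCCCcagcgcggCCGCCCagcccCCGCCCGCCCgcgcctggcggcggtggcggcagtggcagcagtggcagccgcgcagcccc

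The windows were unlike in composition. Only 1 window was taken per gene, and other starts of a gene were not searched. GRAMD1C had 34.0% G or C and 1 CpG, against a median of 58.3% and 14 CpG over 27305 promoters of the same length. PLSCR4 had 60.0% and 24 CpG, BEND4 59.7% and 25 CpG, CMTM8 77.3% and 34 CpG, and HOMER2 82.0% and 44 CpG. Both strands were searched for 8 motifs, and overlapping matches were counted. The GC box GGGCGG, bound by SP1, was found in PLSCR4, CMTM8, HOMER2 and BEND4 and in 44.6% of all promoters. The TATA box letters TATAAA were found in GRAMD1C and PLSCR4 (12.0% of all), in both on the strand opposite to the gene, and CCAAT in GRAMD1C and BEND4 (35.7%). None of the 5 windows held the sterol response element TCACNCCAC (1.15% of all), the E-box CACGTG (7.43%), the AP-1 site TGACTCA (4.92%), the cAMP response element TGACGTCA (1.98%) or the tandem ETS repeat GGAAGGAA (3.58%). No motif searched was present in all 5 windows.

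The genes of lipid handling come first. PNPLA3 read 6.41, 7.02 and 7.03 in TC-71 samples 1, 2 and 3 and 8.46 and 8.59 on the arrays of TC/AEW, 8.36 and 8.38 in TC/AVE, and 8.97 and 8.74 in TC/CP. The groups did not overlap, and TC-71 sample 1 was the lowest. Against the TC-71 mean of 6.82 ± 0.36 (SD, n = 3), the mean of TC/AEW lay 1.70 higher on the log2 scale, that of TC/AVE 1.55 and that of TC/CP 2.04, which is 3.26-fold, 2.93-fold and 4.10-fold. Both PNPLA3 probe sets had TC/CP highest and TC/AVE lowest. The second of them gave 1.69, 1.55 and 1.81.

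GRAMD1C read 3.46, 4.19 and 3.79 in TC-71 and between 5.23 and 5.67 on the 6 line arrays. All TC-71 values were near background, at a mean of 3.81 ± 0.37 (SD, n = 3), and all line arrays were just above the filter, yet under the levels of HBB. The lines are thus not shown to be above background either. The measured differences were 1.73 in TC/AEW, 1.67 in TC/AVE and 1.44 in TC/CP, and no fold is given. The lines lay within 0.29 of one another, about the median range of the lines over all genes tested, 0.31.

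**Figure D1:**
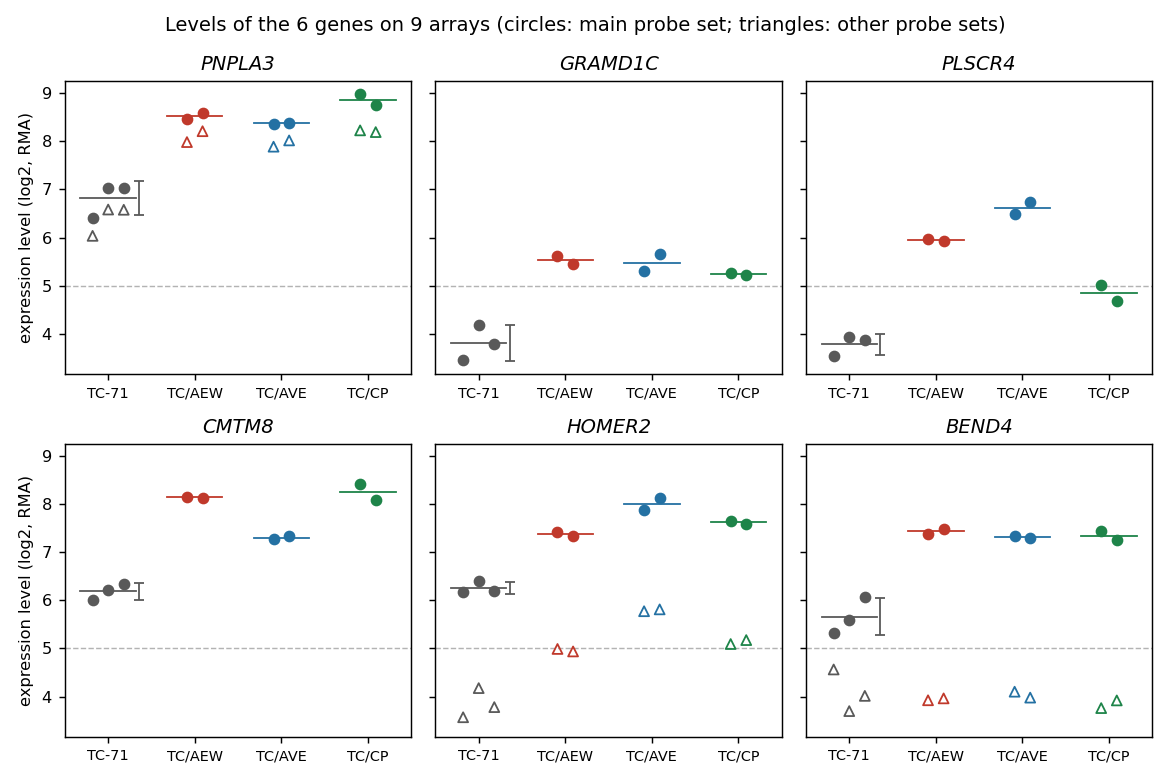
Expression level (log2, RMA) of each gene on each of the 9 arrays, for TC-71 (3 samples) and the lines TC/AEW, TC/AVE and TC/CP (2 technical replicate arrays each), with circles for the main probe set, open triangles for other probe sets, short lines at group means, a bar of ± SD beside TC-71 and a dashed line at the filter of 5. In the main probe sets every line array lies above every TC-71 array, PLSCR4 spreads most between the lines, and the second BEND4 probe set stays below 5 on all arrays.

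The membrane genes differed more between the lines. PLSCR4 read 3.54, 3.95 and 3.87 in TC-71, all near background, and 5.96 and 5.93 in TC/AEW, 6.49 and 6.74 in TC/AVE, and 5.01 and 4.68 in TC/CP. TC/AVE was highest and TC/CP lowest, with the TC/CP mean of 4.85 itself below the filter, so its difference of 1.06 is one between levels near background. Both TC/AEW arrays lay within the range of HBB, so the difference of 2.17 in that line is open to the same limit. The TC/AVE arrays were above that range, and their difference of 2.83 from the TC-71 mean of 3.78 ± 0.22 (SD, n = 3) may be a lower bound.

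CMTM8 read 5.999, 6.22 and 6.34 in TC-71, 8.15 and 8.12 in TC/AEW, 7.27 and 7.33 in TC/AVE, and 8.40 and 8.09 in TC/CP. From a TC-71 mean of 6.18 ± 0.17 (SD, n = 3) TC/AEW stood 1.95 higher, TC/AVE 1.11 and TC/CP 2.06, or 3.86-fold, 2.16-fold and 4.17-fold. TC-71 sample 1 lay within the range of HBB, so these folds may be lower bounds. TC/AVE was the lowest line for CMTM8 and the highest for PLSCR4. CMTM8 and PLSCR4 each had 1 probe set.

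HOMER2, the scaffold, read 6.16, 6.39 and 6.20 in TC-71, the narrowest TC-71 spread of the 6 genes (mean 6.25 ± 0.12, SD, n = 3). The lines read 7.42 and 7.33 in TC/AEW, 7.87 and 8.11 in TC/AVE, and 7.65 and 7.58 in TC/CP, which is 2.18-fold, 3.33-fold and 2.57-fold above TC-71. A second HOMER2 probe set was near background in TC-71 (3.85 ± 0.31, SD, n = 3) and stood 1.12, 1.95 and 1.29 higher in the same lines. Its arrays read 4.99 and 4.94 in TC/AEW, 5.77 and 5.81 in TC/AVE, and 5.09 and 5.17 in TC/CP. None exceeded the levels of HBB, so this probe set is not shown to be above background in the lines either. Both probe sets put TC/AVE highest and TC/AEW lowest.

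BEND4 read 5.31, 5.59 and 6.07 in TC-71 and between 7.26 and 7.48 on the line arrays. The 3 lines were within 0.12 of one another, and 14.6% of genes tested had a narrower range. TC/AEW stood 3.41-fold, TC/AVE 3.14-fold and TC/CP 3.21-fold above the TC-71 mean of 5.66 ± 0.39 (SD, n = 3). Since background can reach up to about 6 for a probe set, as for HBB, these folds may be lower bounds. The second BEND4 probe set was below 5 on all 9 arrays and did not show the difference, with 4.09 ± 0.44 (SD, n = 3) in TC-71 and 3.95, 4.04 and 3.84 in the lines. The value of BEND4 thus rests on 1 probe set.

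In each of the 6 genes every line array read above all 3 TC-71 samples, a condition that 725 genes, 5.11% of those tested, met. Each line was at least 2-fold above the TC-71 mean (1 on the log2 scale, levels near background included) for all 6, which was so for 48 genes in all, 0.338% of those tested. Just inside that line was GRAMD2B, a GRAM domain relative of GRAMD1C, at 1.00, and just outside BEX2 at 0.99. Without TC-71 sample 1 the count was 24 genes and 5 of the 6, PLSCR4 in TC/CP falling to 0.94, while it was 103 and 73 genes, with all 6 among them, without sample 2 and sample 3. The choice of members used these values, so nothing is read from the counts.

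TC-71 sample 1 was the lowest TC-71 sample for all 6 genes. Over all genes tested it was the lowest in 43.0%, and in 69.5% of the 1047 genes that met the condition. It is also the sample that shares no array set with a line. Within array sets the differences were mostly smaller and kept their direction for all 6 genes. TC/AEW minus TC-71 sample 2 ran from 0.98 for HOMER2 to 2.00 for PLSCR4, TC/AVE minus the same sample from 1.08 for CMTM8 to 2.66 for PLSCR4, and TC/CP minus TC-71 sample 3 from 0.98 for PLSCR4 to 1.91 for CMTM8. With array set as a block in the fit, the difference of the lines in common ran from 1.34 for HOMER2 to 1.75 for PLSCR4.

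Differences between the lines were not used to choose the genes and could be tested, in limma with 4 groups, adjusted by Benjamini-Hochberg over all 14181 genes. With 1 sample a line, the spread in this test came from the TC-71 samples alone (2 residual degrees of freedom), and each line was assumed to vary like them. TC/AEW and TC/AVE share an array set and TC/CP is in another. In both comparisons with TC/CP, line and array set therefore cannot be told apart. None of the 18 line pairs of the 6 genes passed an adjusted p of 0.05, and limma called no gene at all in these 3 comparisons (0.0% of those tested). At an unadjusted p under 0.05 there were 4 of the 18, against 386 genes (2.72%) for TC/AEW and TC/AVE, 365 (2.57%) for TC/AEW and TC/CP and 816 (5.75%) for TC/AVE and TC/CP over all genes.

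PLSCR4 gave the widest separation. TC/AVE stood above TC/CP by 1.76 ± 0.31 (SE; 95% interval 0.95 to 2.57, adjusted p = 0.427 by limma), and TC/AEW above TC/CP by 1.10 ± 0.31 (0.29 to 1.91, adjusted p = 1.0 by limma). TC/CP was near background and TC/AEW within the range of HBB, so these sizes are uncertain. The intervals are uncertain too. Their spread came from TC-71 arrays that were all near background for PLSCR4, and it may not hold at the levels of the lines. The range of the lines exceeded that of 98.6% of genes tested. TC/AVE and TC/AEW differed by 0.66, with an interval for TC/AEW minus TC/AVE of -1.47 to 0.15 that includes 0.

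CMTM8 was the other gene with intervals that left out 0. TC/AVE stood below TC/CP, with a difference of -0.95 ± 0.29 (SE; 95% interval -1.69 to -0.20, adjusted p = 0.728 by limma), and TC/AEW above TC/AVE by 0.84 ± 0.29 (0.09 to 1.58, adjusted p = 1.0 by limma). TC/AEW and TC/CP, 8.13 and 8.24, differed by -0.11 with an interval of -0.86 to 0.64. For HOMER2 the largest difference, TC/AEW minus TC/AVE, was -0.61 ± 0.27 (SE; -1.31 to 0.08, adjusted p = 1.0 by limma).

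PNPLA3, GRAMD1C and BEND4 had intervals that included 0 for every pair of lines. The intervals were wide, such as -1.52 to 0.55 for TC/AVE minus TC/CP in PNPLA3 and -0.97 to 1.21 for TC/AEW minus TC/AVE in BEND4. Differences of 2-fold between lines in these genes are therefore not left out by the data, however close the measured levels.

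**Figure D2:**
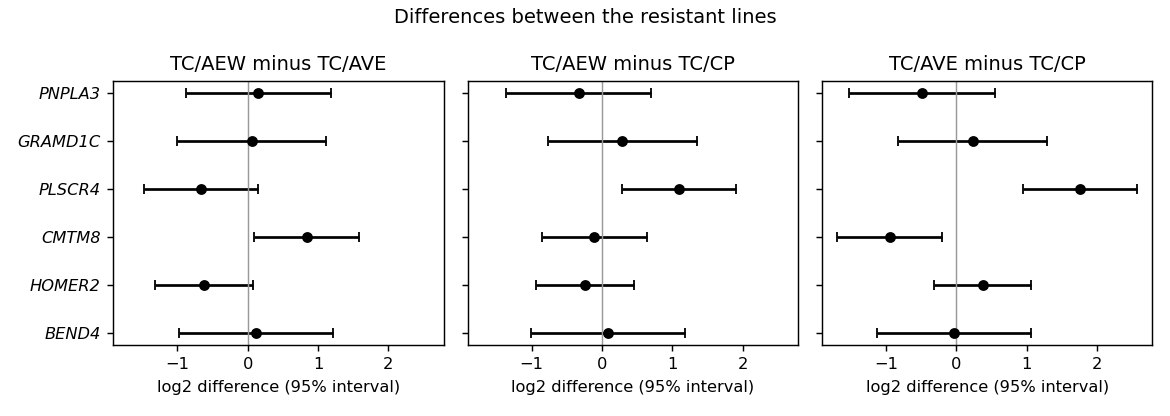
Log2 difference between each pair of resistant lines for the 6 genes (points) with 95% intervals from limma (bars), 1 sample a line. The intervals of PLSCR4 leave out 0 in both comparisons with TC/CP and those of CMTM8 in both comparisons with TC/AVE. Their spread came from the TC-71 samples alone, which were near background for PLSCR4 and GRAMD1C. TC/CP is in another array set than TC/AEW and TC/AVE, so line and array set cannot be told apart in comparisons with it.

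The relatives and partners of the 6 genes were gathered in 7 lists, 118 genes tested besides the 6. The lists were chosen with earlier results of these data known. Their counts are therefore descriptions, and whether a family moves with its member was not tested. In limma with 2 groups none of them passed over all genes in the lines in common, where 3 genes of 14181 were called (0.0212%). Single lines were compared with TC-71 in limma with 4 groups and 1 sample a line, where the spread came from the TC-71 samples alone. At an unadjusted p under 0.05, 23 of the 118 (19.5%) were found in the lines in common, 21 higher and 2 lower, against 1187 (8.37%) over all genes. Singly, the count was 8 of 118 in TC/AEW, where all genes gave 3.53%, 18 in TC/AVE, where all genes gave 7.18%, and 10 in TC/CP, where all genes gave 4.97%. The median difference of the 118 genes was 0.07, beside -0.01 over all genes.

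Lipid droplet proteins and lipases, the group of PNPLA3, were split in direction. Of 19 tested, 9 were higher and 10 lower in the lines in common, at a median of -0.0037, and 1 was found at an unadjusted p under 0.05. ABHD5, the coactivator of the lipase PNPLA2, read 7.42 ± 0.15 in TC-71 (SD, n = 3) and 7.76 (TC/AEW), 7.71 (TC/AVE) and 8.06 (TC/CP) in the lines, a difference of 0.42 ± 0.15 (SE, adjusted p = 0.536 by limma). PNPLA8, a phospholipase of mitochondria, overlapped between the groups with TC-71 values from 7.81 to 9.06. CIDEB, which promotes fusion of lipid droplets in liver, had a difference of -0.51 ± 0.23 (SE, adjusted p = 0.62 by limma). PNPLA5, the direct neighbour of PNPLA3 and a relative by sequence, was near background, at 4.81 in TC-71 and 4.78 in the lines.

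Triglyceride synthesis was covered by 17 genes, of which 12 were higher and 5 lower, at a median of 0.14 and 4 at an unadjusted p under 0.05, all higher. ACSL1, which activates long-chain fatty acids, had TC-71 values of 5.75, 7.18 and 7.42 and line values of 8.04, 8.81 and 7.58, a difference of 1.36 ± 0.49 (SE, adjusted p = 0.531 by limma). ACSL4, which prefers arachidonic acid, differed by 1.18 ± 0.28 (adjusted p = 0.341), and GPAT3, an acyltransferase of the first step, by 0.79 ± 0.29 (adjusted p = 0.531). TC-71 sample 1 was the lowest TC-71 sample in all 3 genes.

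Among 25 GRAM domain relatives and sterol carriers, 18 were higher and 7 lower, at a median of 0.13 and 4 at an unadjusted p under 0.05, all higher. GRAMD2B read 4.61, 5.97 and 5.11 in TC-71 and 6.23, 6.25 and 6.45 in the lines (1.08 ± 0.32 higher, SE, adjusted p = 0.44 by limma). STARD4, a soluble cholesterol carrier and a sterol-regulated gene, differed by 1.01 ± 0.25 (adjusted p = 0.345), and OSBPL3, an oxysterol-binding protein relative at contact sites, by 0.75 ± 0.23 (adjusted p = 0.443).

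Of 18 scramblases and flippases, 15 were higher and 3 lower, at a median of 0.13 and 4 at an unadjusted p under 0.05, all higher. ATP11B, a flippase, read 7.87 to 8.51 in TC-71 and 8.92, 9.58 and 8.88 in the lines (0.86 ± 0.25 higher, SE, adjusted p = 0.428 by limma), and ATP9A differed by 0.91 ± 0.28 (adjusted p = 0.447). ATP8B1, a flippase known from inherited cholestasis, split the lines, with 4.64 in TC/AEW, 7.55 in TC/AVE and 7.93 in TC/CP against 5.44 ± 0.61 in TC-71 (SD, n = 3), and TC/AEW minus TC/AVE was -2.92 ± 0.60 (SE, adjusted p = 0.832 by limma). For ATP8B1, TC/AEW and TC-71 sample 1 (4.83) were near background, so the sizes of its differences are uncertain. PLSCR1, the scramblase gene that lies next to PLSCR4 among the genes tested, read 8.93 ± 0.30 in TC-71 and 9.50, 9.47 and 9.75 in the lines (0.65 higher, adjusted p = 0.411 by limma). The order of the lines in PLSCR1 thus had TC/CP highest, whereas PLSCR4 had it lowest.

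In the CMTM family with related MARVEL proteins, 12 of 16 were higher and 4 lower, at a median of 0.19 and 4 at an unadjusted p under 0.05, 3 of them higher. MARVELD1 was lower in each line than in any TC-71 sample, 8.77 ± 0.31 against 8.17, 8.13 and 7.96 (difference -0.69 ± 0.18, SE, adjusted p = 0.373 by limma). OCLN, the tight junction protein occludin, differed by 0.65 ± 0.22 (adjusted p = 0.503 by limma), with TC/AEW inside the TC-71 range. SYNGR3, a synaptic vesicle protein, differed by 0.72 ± 0.33 (adjusted p = 0.634 by limma) from a level near background. It read 4.97 in TC/AEW, still below 5, 5.33 in TC/AVE and 4.13 in TC/CP, the last inside the TC-71 range. CMTM7 and CMTM6, next to CMTM8 on the chromosome, differed by 0.13 and 0.31 (adjusted p = 0.859 and 0.632 by limma).

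Of 17 Homer relatives and partners, 11 were higher and 6 lower, at a median of 0.04 and 6 at an unadjusted p under 0.05, 5 of them higher. ITPR1, the IP3 receptor that HOMER proteins bind, read 5.31, 6.08 and 5.97 in TC-71 and 6.74, 7.18 and 7.50 in the lines (1.35 ± 0.27 higher, SE, adjusted p = 0.241 by limma). NFATC1, a calcium-regulated transcription factor that HOMER2 is known to bind, differed by 1.20 ± 0.21 (adjusted p = 0.204), and the calcium channel TRPC1 by 0.69 ± 0.18 (adjusted p = 0.389). In these 3 genes each line was above all TC-71 samples, as in 5 of the 17 genes of the list and 7.38% of all genes tested. They were named for having the largest differences of the list.

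The BEN domain family gave 1 of 6 higher and 5 lower, at a median of -0.09 and none at an unadjusted p under 0.05. BEND3, BEND5 and NACC1 differed by -0.41, -0.18 and -0.11 (adjusted p = 0.812, 0.921 and 0.932 by limma). All 3 lines were inside the TC-71 range for NACC1, whereas TC/AVE lay below it for BEND5, and TC/AEW and TC/AVE lay below it for BEND3.

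**Figure D3:**
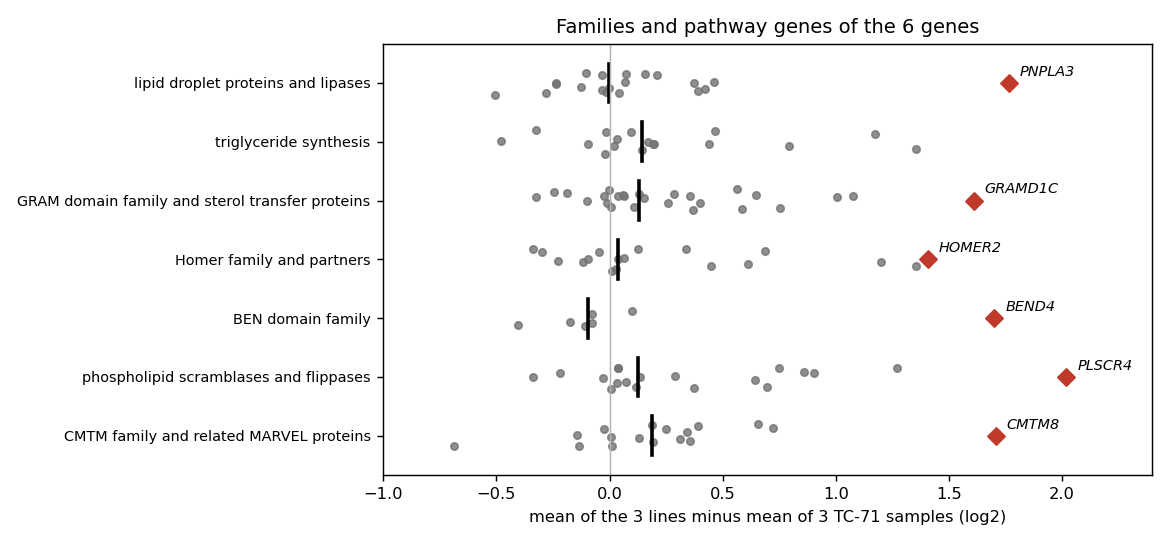
Mean of the 3 lines minus mean of the 3 TC-71 samples (log2) for the genes tested of the 7 lists (grey points, vertical bars at the list medians) and for the 6 genes (red diamonds), spread at random up and down within a row. List medians lie between -0.09 and 0.19. The 6 genes were chosen for the difference plotted here, so their place in a row is a result of the choice.

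The chromosomal position of the 6 genes was not part of their choice. GRAMD1C, PLSCR4 and CMTM8 lie on chromosome 3, HOMER2 on 15, BEND4 on 4 and PNPLA3 on 22. Chromosome 3 holds 5.37% of the genes tested and 15.0% of those with each line above all TC-71 samples (157 genes). This was looked at after the positions of the 6 genes were seen, and it is described without a test.

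On chromosome 3, 20.7% of 760 genes had each line above all TC-71 samples, the highest share of the 23 chromosomes compared, and 2.37% had each line below. Chromosome 15 followed with 16.4% and chromosome 18 with 15.4%, while chromosomes 4 and 22, with BEND4 and PNPLA3, had 8.76% and 5.77%, beside 7.38% over all genes. At the other end, 27.5% of 255 genes on chromosome 13 had each line below all TC-71 samples (6.4% over all genes) and 0.784% above. The median difference of chromosome 3 genes was 0.13 in TC/AEW, 0.15 in TC/AVE and 0.16 in TC/CP, 3 comparisons that share the TC-71 samples, and 0.16 in the lines in common with or without the members. Within array sets it was 0.10 and 0.14 for TC/AEW and TC/AVE against TC-71 sample 2 and 0.12 for TC/CP against sample 3.

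**Figure D4:**
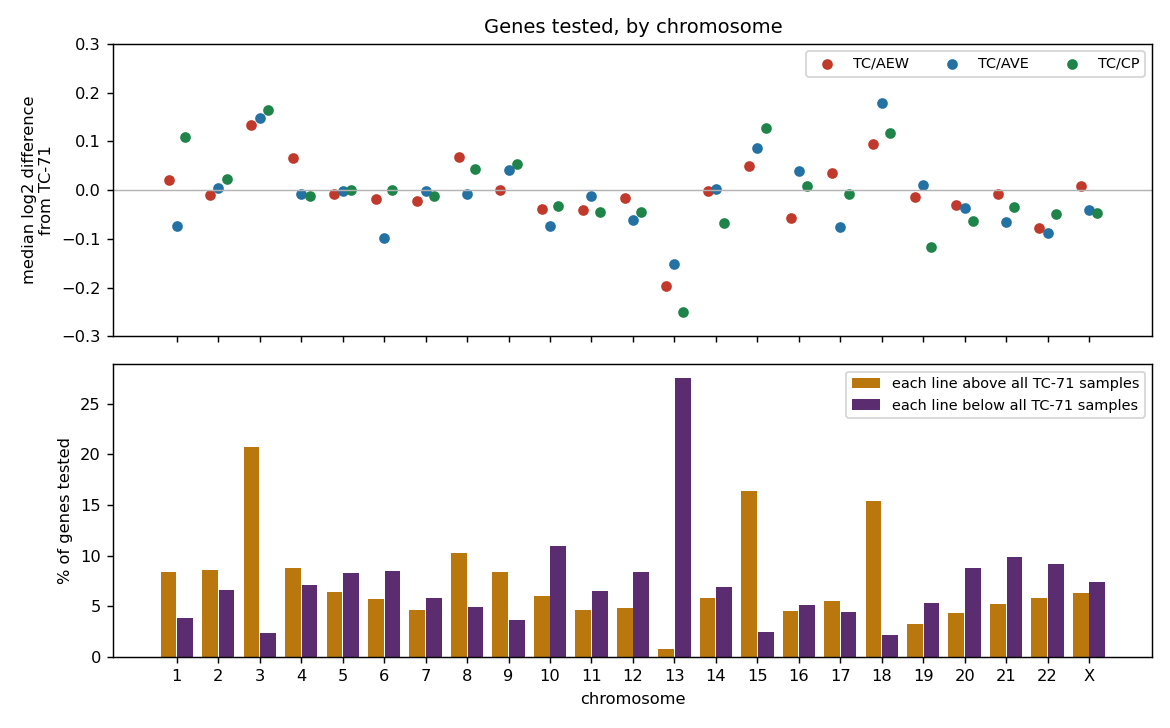
Upper panel, median log2 difference of each line from the TC-71 mean over the genes tested on each chromosome; lower panel, percent of genes tested with the mean of each line above (orange) or below (purple) all 3 TC-71 samples. Chromosome 3, which holds 3 of the 6 genes, has the largest share above (20.7%) and chromosome 13 the largest share below (27.5%).

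Nearest neighbours were taken by position alone, the 2 protein-coding genes tested on either side of each gene. Of these 24 genes, 16 were higher and 8 lower in the lines in common, with a median of 0.32. None passed over all genes in limma and 7 had an unadjusted p under 0.05. Over all genes 49.1% were higher, at a median of -0.01, and 8.37% had an unadjusted p under 0.05. The neighbours of GRAMD1C, PLSCR4 and CMTM8 make up 12 of the 24 and lie on chromosome 3, where 72.5% of genes were higher. ZDHHC23, a palmitoyltransferase whose gene lies 0.7 kb beyond GRAMD1C, read 5.43 ± 0.45 in TC-71 (SD, n = 3) and 7.00, 7.03 and 7.00 in the lines, 1.58 higher (adjusted p = 0.16 by limma). GPD1L, 69.5 kb before CMTM8, was 1.05 higher (adjusted p = 0.34), and CPEB1, near HOMER2, 0.98 higher (adjusted p = 0.468). The 4 neighbours of PNPLA3 (SULT4A1, PNPLA5, SAMM50 and PARVB) had differences between -0.11 and -0.02.

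The genes most like each member over the 6 samples were sought among 1272 genes with an SD of at least 0.5. The correlations are descriptions: the 6 samples fall into 2 groups, 3 TC-71 samples and 3 lines, and genes that differ between these groups correlate whatever else they share. PNPLA3 was most like NEK6, a mitotic kinase (Pearson r = 0.986), and DDX3Y, an RNA helicase (0.985). GRAMD1C was most like the bicarbonate transporter SLC4A7 (0.985) and the cAMP phosphodiesterase PDE4B (0.982). PLSCR4 was most like the glutamate transporter SLC1A1 (0.987) and the adhesion receptor ADGRG6 (0.986), both of which had TC/AVE highest and TC/CP lowest of the lines. CMTM8 was most like the transcription factor BATF3 (0.976) and FGD4, an activator of CDC42 (0.968), both with TC/AVE lowest of the lines. HOMER2 was most like TXLNGY (0.996) and the kinase MAP3K13 (0.991), and BEND4 the interferon-induced IFITM3 (0.985) and ZDHHC23 (0.984), the neighbour of GRAMD1C. Among the 6 genes themselves r ran from 0.715 for PLSCR4 and CMTM8 to 0.975 for PNPLA3 and BEND4.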

How the data were processed

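Each of 9 samples was hybridised to an Affymetrix HG-U133 Plus 2 array. The deposited values are log2 expression levels per probe set. The submitters' processing notes name RMA and affy for them; no version was given. The 2 technical replicate arrays of a line were averaged, which gave 6 samples, so a p-value here reflects the spread among these samples alone, which may be technical. Of 54613 probe sets without controls, 41091 carried 1 gene symbol, and those with at least 2 of 9 arrays at 5 or more were kept. Each gene was represented by the kept probe set with the highest mean, with _x_at probe sets used only where there was no other. The two-sided tests of limma 3.58.1 (R 4.3.3) were adjusted by Benjamini-Hochberg over the 14181 genes. The members and lists were chosen with earlier results of these data known. The named genes were the members, the 3 genes of each list with the largest absolute difference in common and the 2 most correlated genes for each member; other genes were named by position or after their values were seen. The number of arrays limits precision.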

Additional observations from a re-analysis of the deposited data

How the results depend on the processing

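The difference of the lines in common from TC-71 was above 0 for PNPLA3, PLSCR4, CMTM8 and HOMER2 under every alternative run, and for BEND4 under all but the second probe set. A filter at 6 left out GRAMD1C, whose arrays all read below 6, and under the other alternatives its difference was above 0. The second BEND4 probe set gave -0.15, and the mean of both BEND4 probe sets 0.78. With array set as a block PLSCR4 gave 1.75. Leaving out a TC-71 sample, a line array or a line gave ranges of 1.61 to 2.50 for PLSCR4, 1.53 to 2.00 for CMTM8, 1.24 to 1.55 for HOMER2, 1.43 to 1.80 for GRAMD1C, 1.53 to 1.91 for BEND4 and 1.56 to 1.87 for PNPLA3. The count of genes at least 2-fold above TC-71 in each line, 48, ran from 24 to 103 without 1 TC-71 sample, and the count with each line above all TC-71 samples, 1047, from 1496 to 2100, an alternative added after the data were seen. The limma count in common, 3, was 0 with no filter, 6 with a filter at 6, 6 with the mean of all kept probe sets, 5 with no _x_at or _s_at probe sets, 5 with arrays centred on their medians and 0 with array set as a block, and from 0 to 5 when 1 sample, array or line was left out. The mean of all kept probe sets gave 6 genes in TC/AVE against TC-71. With the 9 arrays as samples, where technical replicates pass for biological ones, there were 240 in common, 547 in TC/AEW, 1857 in TC/AVE and 1029 in TC/CP against TC-71, and 582, 685 and 1897 for TC/AEW against TC/AVE, TC/AEW against TC/CP and TC/AVE against TC/CP. Between lines, 5 of 231 alternative values of the 6 genes passed the threshold, all with 9 arrays as samples, in PLSCR4, CMTM8 and HOMER2. The causes were not tested. No paired analysis was possible because each line is 1 sample once its technical replicates are averaged, so no numbers are shared with TC-71.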
